A study of Mus musculus with 4 samples.

Results

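The deposited table gives, for each gene, separate read counts for the chromosomes of 2 mouse strains, and the autosomal genes of control neural stem cells were compared here between those chromosomes. Control cells, female and written Smchd1 del/fl, carry 1 deleted and 1 conditional allele of Smchd1, whose protein holds genes of the inactive X chromosome silent. The deleted cells, Smchd1 del/del, are the part of the same lines that was transduced with a retrovirus carrying Cre and a puromycin cassette, selected with puromycin from 24 h and harvested at day 7, while the controls stayed untransduced. The lines came from E14.5 embryos, all carry an Xist deltaA allele on the maternal 129 X chromosome and a Castaneus X chromosome from the father, and the labels give their strain as a mix of C57BL/6, 129 and Castaneus. There are 2 lines, written A and B, each with 1 control and 1 deleted library. Each line is 1 embryo culture as far as the labels tell. Deletion, transduction and selection cannot be told apart.

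The Castaneus-derived reads are called Cast and the other reads 129 here. Which of 129 and C57BL/6 the non-Cast chromosome carries at a given gene was not tested, and neither was the column to which C57BL/6 reads would be assigned. In much of each genome almost no allele-assigned counts were Cast, so genes were compared only in stretches where both kinds were common. A stretch of 10 Mb was used in a control library when Cast made up 35 to 65% of its summed allele-assigned counts, and a gene there was informative when it had at least 20 such counts. Of 254 stretches with counts on chromosomes 1 to 19, 88 qualified in control A, 109 in control B and 41 in both. The highest excluded stretch below the window held 34.7% Cast in control A (33.9% in control B), and the lowest above it 66.9% (69.9%). All 88 and all 109 also lay inside the window in the deleted library of the same line. A stretch was judged by its sum, so parts of one could still hold almost no Cast counts. This was so for 10 genes near the end of chromosome 15 in line B.

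Of 25965 entries in the table, 24483 of them autosomal, 4024 were informative in control A, 5352 in control B, 7286 in either and 2090 in both. Among those 2090, Cast counts were at least 2-fold above 129 counts in both controls for 84 genes (4.02%) and 129 counts at least 2-fold above Cast for 90 (4.31%), together 174 genes (8.33%). These 174 are described below. The same counts chose them, so their shares in the controls are a description and carry no test. A further 2 genes were biased in opposite directions, 185 passed the 2-fold limit in 1 control only and 1729 in neither.

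In a cell with chromosomes of 2 strains, both copies of a gene meet the same nuclear proteins, and an unequal output of the copies is usually traced to sequence differences on the chromosome itself. Imprinted genes are the other well-known case: one parental copy is kept silent by DNA methylation set in the germ line, so the direction follows the parent and not the strain. Neural stem cells, which divide and give rise to neurons and glia, express several of the classical imprinted genes.

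Promoter sequences are shown for 4 of the biased genes because they stand for the kinds of gene below: the neighbours Rgs8 and Rgs16, read mostly from Cast, the imprinted gene Peg3, also read from Cast, and Aldoc, read mostly from 129. Each runs from 250 bases before to 50 after the RefSeq start in GRCm38.p6, 5′ to 3′ on the strand of the gene, and capitals mark the dinucleotide CG, the site of DNA methylation. The windows are chr1:153652787-153653086 (plus strand), chr1:153740103-153740402 (plus), chr7:6730370-6730669 (minus) and chr11:78322823-78323122 (plus). They show the reference genome and not the Cast or 129 copy, whose differences were not analysed here.
Rgs8: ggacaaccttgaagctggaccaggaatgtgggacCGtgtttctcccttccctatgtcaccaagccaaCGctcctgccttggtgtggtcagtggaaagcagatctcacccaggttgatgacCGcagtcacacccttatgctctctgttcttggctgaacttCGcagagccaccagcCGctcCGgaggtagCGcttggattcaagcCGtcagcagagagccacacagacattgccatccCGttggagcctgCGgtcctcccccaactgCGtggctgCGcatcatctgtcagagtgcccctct
Rgs16: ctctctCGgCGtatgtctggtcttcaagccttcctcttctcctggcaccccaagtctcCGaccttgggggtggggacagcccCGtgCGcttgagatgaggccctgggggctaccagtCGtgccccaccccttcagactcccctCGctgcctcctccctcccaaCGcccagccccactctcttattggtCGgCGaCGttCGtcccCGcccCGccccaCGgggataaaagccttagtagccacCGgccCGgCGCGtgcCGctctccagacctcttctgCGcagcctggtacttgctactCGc
Peg3: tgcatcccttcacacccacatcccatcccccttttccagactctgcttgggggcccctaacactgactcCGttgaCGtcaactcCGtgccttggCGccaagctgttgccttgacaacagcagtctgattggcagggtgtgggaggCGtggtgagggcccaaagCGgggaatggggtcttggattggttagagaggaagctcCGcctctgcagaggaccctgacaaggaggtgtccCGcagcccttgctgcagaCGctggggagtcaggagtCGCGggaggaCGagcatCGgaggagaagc
Aldoc: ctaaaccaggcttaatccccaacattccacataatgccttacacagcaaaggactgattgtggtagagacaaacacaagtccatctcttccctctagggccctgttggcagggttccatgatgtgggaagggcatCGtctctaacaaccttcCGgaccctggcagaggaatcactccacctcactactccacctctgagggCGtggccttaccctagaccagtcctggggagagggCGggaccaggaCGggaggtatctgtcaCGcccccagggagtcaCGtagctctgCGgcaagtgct
CG occurred 12 times in the Rgs8 window, 22 in Rgs16, 13 in Peg3 and 8 in Aldoc. The median was 7 over all 32851 RefSeq promoters of this length and 21 over the 1497 found for informative genes. The ratio of observed to expected CG was 0.477, 0.719, 0.463 and 0.338 in the same order, with a median of 0.384 over all promoters. Promoters were found for 40 of the 84 Cast-biased genes and 57 of the 90 129-biased genes, with median ratios of 0.677 and 0.695, against 0.791 over 1497 of the 2090 informative genes. The letters TATAAA, read on both strands, stood in 5% of the Cast-biased, 5.26% of the 129-biased and 4.94% of all informative promoters, and in 13.6% of all RefSeq promoters.

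Most informative genes were read about equally from both chromosomes. The median Cast share, the percentage of a gene's allele-assigned counts that were Cast, was 49.4% in control A and 48.7% in control B over the 2090 genes, and the interquartile range was 44.5 to 54.1% and 44.3 to 53.3%. Across these genes the log2 ratio of Cast to 129 (1 count added to each) correlated between the controls at Pearson's r = 0.70 and Spearman's rho = 0.66. This is a description across genes, which are not independent replicates, and both libraries share the same strain differences and read assignment. Counting alone gives a balanced gene with 20 counts a 95% Wilson interval of 29.9 to 70.1%, one with 100 counts 40.4 to 59.6% and one with 1000 counts 46.9 to 53.1%. Genes with 20 to 50 counts in the shallower control were biased the same way in 18.4% of cases, those with 50 to 100 in 10%, those with 100 to 500 in 7.00% and those above in 6.31%. These intervals cover counting error only, since reads without molecular identifiers are not independent molecules.

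**Figure D1:**
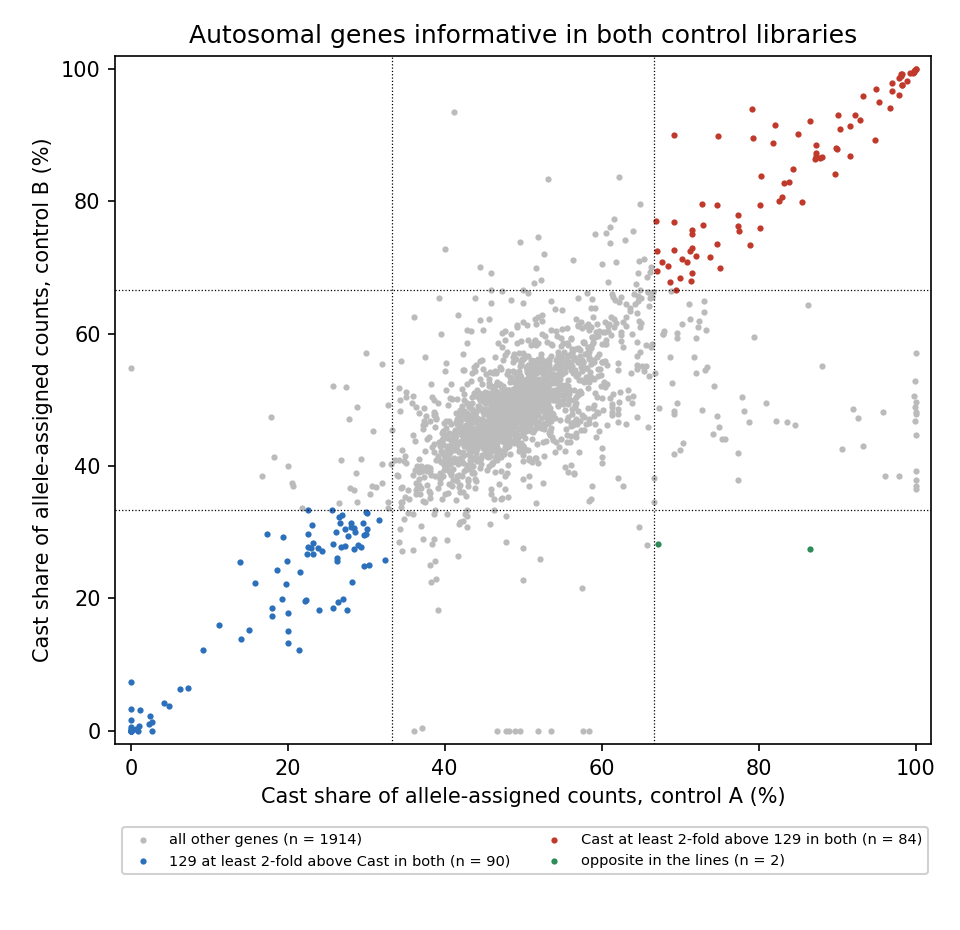
Cast share of allele-assigned counts in control A (horizontal axis, %) and control B (vertical axis, %) for 2090 autosomal genes, 1 point per gene, with dotted lines at 33.3 and 66.7% (the 2-fold limits). The 84 Cast-biased genes fill the upper right, the 90 129-biased genes the lower left, and the points along the right and lower edges are genes at an extreme in 1 line only.

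Imprinted genes stood at both ends of the range. Peg3, a zinc finger protein gene expressed from the father's copy (chr7:6703892-6730421), had 4 129 and 1232 Cast counts in control A and 12 and 1952 in control B, or 99.7% and 99.4% Cast. Its deleted libraries stood at 99.6% and 99.2%, so all 4 libraries were close to fully Cast. Snrpn, a paternally expressed splicing protein gene of the Prader-Willi cluster (chr7:59982495-60140219), was at 98.3% and 97.6% in the controls and 97.4% and 97.2% in the deleted libraries. Of the exons of Snrpn, 34.1% overlap other annotated genes, and 12.5% and 12.2% of its counts in the controls were assigned to a chromosome. Zrsr1, a paternally expressed splicing factor gene inside an intron of Commd1, had no 129 count against 74 Cast counts in each control.

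Grb10, an adaptor of insulin receptor signalling that is maternally expressed outside neurons (chr11:11930508-12038683), went the other way. It had 94 129 and 0 Cast counts in control A and 327 and 2 in control B, and 0% and 0.60% Cast in the deleted libraries. Only 8.38% and 8.88% of its reads in the controls could be assigned to a chromosome, against a median of 30.5% over all informative genes in control A.

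Other genes listed as imprinted were not biased in both controls. Of 7 informative genes of the paternal list, 3 were Cast-biased (42.9%, where 4.02% of all informative genes were), and of 5 of the maternal list, 1 was 129-biased (20%, where 4.31% were). Ndn, from the same cluster as Snrpn, was at 64.0% and 75.5% Cast in the controls, Peg12 at 58.1% and 66.2% and Mkrn3 at 52.5% and 60%. Zim1, which the paternal list held although it is usually classed as maternally expressed, was at 42.9% and 58.6%. Ube3a, maternally expressed in mature neurons, was at 45.6% and 40%, and Commd1 at 46.5% and 46.0%. Chrac1 lay at 46.5% and 46.7% and Trappc9 at 39.3% and 43.7%. Among genes informative in 1 control only, 3 of 4 of the paternal list were Cast-biased there and 2 of 4 of the maternal list 129-biased. The former were Airn, the noncoding RNA that silences Igf2r, with 0 129 and 76 Cast counts in control B, Mcts2 at 91.8% Cast in control B and Impact at 92.1% in control A. Dlk1, the fourth, was at 38.3% in control B. Of the maternal list, Igf2r had 538 129 and 21 Cast counts in control B (3.76% Cast) and Meg3 56 and 0, while Gnas was at 45.6% and Blcap at 39.1% Cast there. The labels give the parent of origin for the X chromosome only, so for autosomes the direction is stated by strain.

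Among genes with no such parental rule, the Cast-biased ones with most counts included a pair of signalling regulators. Rgs8 (chr1:153653025-153697667) and Rgs16 (chr1:153740349-153745468) are neighbours and encode proteins that switch off G protein signals. Rgs8 had 584 129 and 2185 Cast counts in control A and 384 and 1064 in control B, which are 78.9% (Wilson 95% interval 77.4 to 80.4) and 73.5% (71.1 to 75.7) Cast. Rgs16 had 1104 and 2605 in control A and 700 and 1736 in control B, or 70.2% and 71.3%, and 10.1% of its exons overlap another annotated gene. Npl, a sialic acid degrading enzyme gene just before them, was at 80.2% and 79.4%. The genes around Rgs8 had median shares of 52.1% in control A and 46.6% in control B.

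Ddx17, an RNA helicase gene (chr15:79527707-79546741), was at 77.3% and 77.9% Cast in the controls and 76.5% and 76.1% in the deleted libraries, and the Wilson intervals of the controls were 75.7 to 78.9% and 76.5 to 79.2%. The value of deleted A lay inside the interval of its own line's control, and that of deleted B below its own. Cpne7, which encodes a calcium-dependent membrane binding protein (chr8:123117374-123135182), was Cast-biased in all libraries but split by line, at 74.9% and 72.7% in the libraries of line A and 89.9% and 88.6% in those of line B. Cyp7b1, an oxysterol hydroxylase gene, was at 72.7% and 79.6% (30 129 and 80 Cast counts, then 21 and 82). Its Wilson intervals in the controls were 63.7 to 80.2% and 70.8 to 86.3%.

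The 129-biased genes with most counts held several with metabolic and translational roles. Aldoc, the aldolase of astrocytes and neural progenitors (chr11:78322968-78327781), had 1730 129 and 176 Cast counts in control A and 2119 and 295 in control B, or 9.23% (8.02 to 10.6) and 12.2% (11 to 13.6) Cast. The genes around it were balanced, with median shares of 48.5% and 46.8%. Fabp5, a fatty acid binding protein gene (chr3:10012548-10016607), was at 19.9% and 25.7%, and the deleted libraries at 20.4% and 21.6% lay between. Eif5a and Eif4a1, translation factor genes on chromosome 11, were at 27.3% and 27.9% and at 27.6% and 29.4%, and Eif4a1 has 1 near-identical copy. Tns3, a focal adhesion protein gene, was at 25.7% and 28.2%, Grm5, a metabotropic glutamate receptor gene, at 28.4% and 30.7%, and Tnrc6b, a partner of Argonaute proteins, at 29.7% and 29.6%. In the controls, 9.24% and 10.4% of Eif5a counts could be assigned to a chromosome, and 14.0% and 13.7% of those of Grm5.

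A second group of 129-biased genes was read almost fully from 129. Nfatc3, a calcium-regulated transcription factor gene (chr8:106059603-106130537), had 1030 129 and 11 Cast counts in control A and 944 and 7 in control B. Lpo, the lactoperoxidase gene, had 313 and 2, then 333 and 1. Cox4i1, a subunit of cytochrome c oxidase, had 331 and 4, then 314 and 10, but these were only 3.13% and 3.00% of all its counts. Ubb, a polyubiquitin gene, was at 2.66% and 1.36% Cast and Ftl1, the ferritin light chain, at 7.27% and 6.48%. Both have near-identical copies elsewhere in the annotation, 2 for Ubb and 4 for Ftl1. Of the exons of Ftl1, 34.6% overlap other annotated genes, and 97.6% and 96.3% of its counts in the controls were assigned. In all, 27 genes were above 90% Cast in both controls and 24 below 10%.

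**Figure D2:**
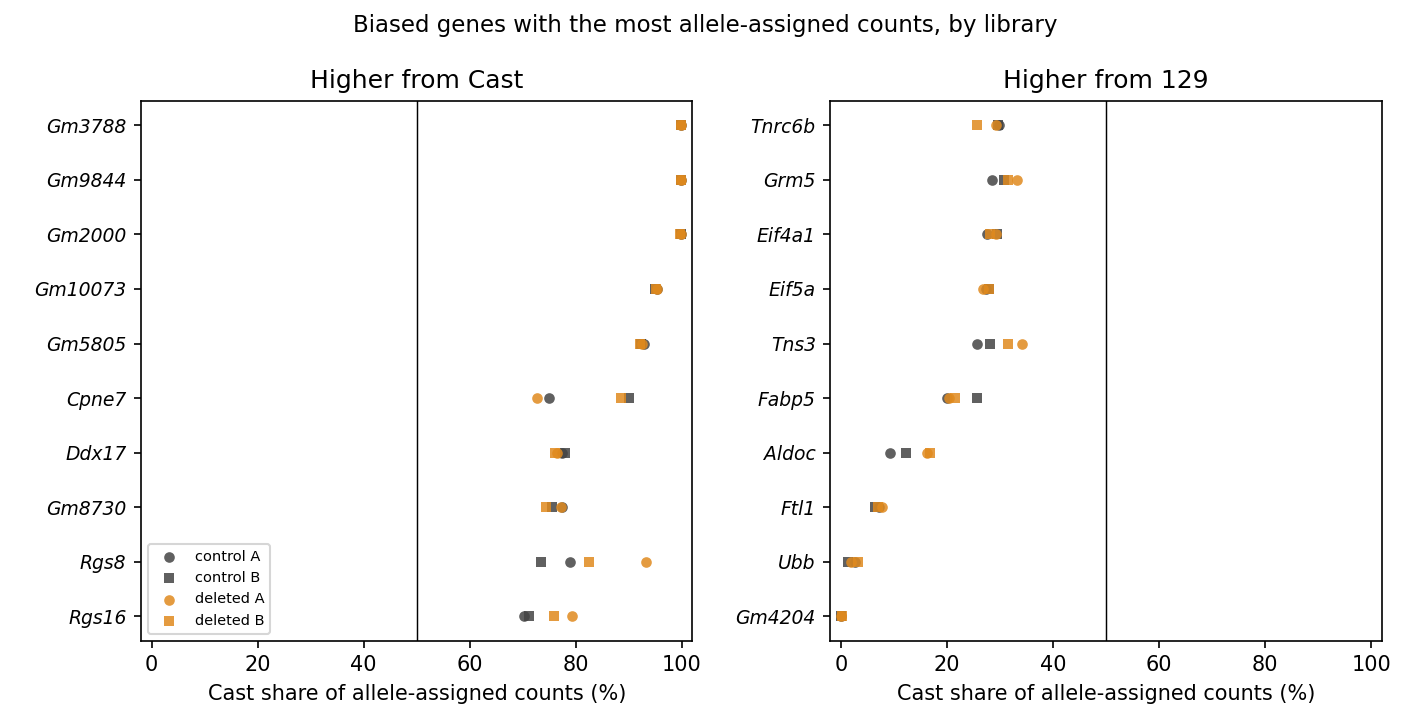
Cast share (horizontal axis, % of allele-assigned counts) of the 10 Cast-biased (left) and 10 129-biased (right) genes with the most allele-assigned counts, with circles for line A, squares for line B, grey for control and orange for deleted libraries. Of these 20 genes, Cpne7 was called between lines, and Rgs8, Rgs16, Aldoc and Tns3 between genotypes in the model blocked by line only (Rgs8 at 78.9 and 73.5% in controls, 93.3 and 82.5% in deleted libraries).

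Some biased entries have a near-identical copy with which reads may be shared, and their shares are uncertain. Of 73 Cast-biased genes found in the annotation, 15 (20.5%) had an exonic stretch of at least 200 bases with at least 98% identity at another locus, as had 15 of 82 129-biased genes (18.3%) and 85 of 1908 informative genes (4.45%). Exons that overlap another gene by at least 10% were found in 15.1%, 20.7% and 16.0% of them, and strand use in the counting is not given in the sources used here. Pseudogenes made up 6 of the Cast-biased and 4 of the 129-biased genes, and 13 of all informative ones. Gm2000 (4 129 and 3049 Cast counts in control A), Gm10073 (571 and 11644) and Gm9844 (2 and 2190) have such a copy. The entry Gm3788 overlaps Gm9844 and had the same counts in control A, so the pair cannot be counted as separate genes. On the other side the pseudogene Gm4204, which also has a copy, had 2447 129 counts and 1 Cast count in control A, and 3658 and 0 in control B. Of the genes found in the annotation, 49 Cast-biased and 53 129-biased ones had no such copy, exon overlap or pseudogene annotation. A further 11 and 8, Gm3788 among them, were not found and could not be checked.

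Ribosomal protein genes, which have many processed copies in the genome, were biased in both directions. Of 18 informative members, 4 were Cast-biased (Rpl3, Rpl19, Rpl23a and Rpl28) and 2 129-biased (Rps16 and Rpl18), or 33.3% where 8.33% of all informative genes were biased. Rpl3 had 18 129 and 1012 Cast counts in control A and 29 and 1197 in control B, and 85.2% and 86.2% of its counts were assigned to a chromosome. It has 3 near-identical copies in the annotation, Rpl19 has 4, Rpl23a 6 and Rpl28 3. Another annotated gene overlaps 62.3% of the exons of Rpl23a. Rpl19 was at 88.0% and 86.7%, Rpl23a at 87.2% and 86.4% and Rpl28 at 87.8% and 86.6% Cast. Rps16 had 78 129 and 4 Cast counts, then 76 and 3, and Rpl18 was at 21.6% and 24.1%. Assignment of over 80% of counts was rare, in 13 of 2090 informative genes, of which 3 were Cast-biased and 4 129-biased.

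Other families held few biased genes each, and are read against the 8.33% of all informative genes. None of 86 informative zinc finger genes named Zfp was biased the same way in both controls, and their mean shares in the controls spanned 34.5 to 63.5%. Zfp260 was at 46.3% and 48.7% and Zfp146 at 50.8% and 53.0%. Of 29 solute carrier genes 1 was biased (3.45%), Slc45a4 at 97% and 96.7% Cast, and of 18 histone and DNA modifier genes 1 (5.56%), Cbx7, a Polycomb protein gene, at 84.4% and 84.8% (5 129 and 27 Cast counts, then 5 and 28). Of 10 respiratory chain genes 1 was biased (10%, Cox4i1), and of 11 matrix and integrin genes 1 (9.09%, Itga2, at 66.9% and 77.0% Cast). Of 7 receptor kinase and growth factor genes 1 was biased (14.3%), Ntrk3, the neurotrophin-3 receptor, at 31.6% and 31.9%. Of 9 drug metabolism genes 2 were biased (22.2%). Cyp7b1 was Cast-biased and Aldh9a1, an aldehyde dehydrogenase gene, 129-biased at 30.1% and 30.4%. The antigen presentation genes Canx (49.3% and 50.5%) and Psmb10 (59.3% and 50.4%) were not biased.

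Interferon-inducible genes had 2 129-biased members of 5 (40%, where 4.31% of all informative genes were). The other 3 were Irf3 at 37.6% and 39.8% Cast, Irf1 at 51.1% and 55.7% and Dhx58 at 51.6% and 70% (15 129 and 16 Cast counts, then 9 and 21). Irgm1, an immunity GTPase gene, was at 20% and 17.8% Cast in the controls, and Trim25, a ubiquitin ligase gene of RNA sensing, at 26.3% and 26.1%. In the deleted library of line A, Irgm1 was at 32.9% and Trim25 at 35.2%, and in that of line B at 19.7% and 33.2%. The total level of Irgm1, as total counts scaled to library size (CPM), was 21.8 and 19.4 for controls A and B, then 65.3 for the deleted part of A and 21.8 for that of B. Trim25 stood at 15.5, 16.5, 59.8 and 20.1 in the same order. Deleted A therefore stood apart from the other 3 libraries in the level of both genes. For Irgm1 it also stood apart in share, while Trim25 was above both controls in both deleted libraries. Whether level and share are linked was not tested.

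Cell type markers were checked where they were informative. Neural stem cell markers were informative in 1 line only, 7 of them, and none was biased. Of the astrocyte markers, 3 were informative in both controls: Aldoc, described above, Gfap at 49.7% and 43.5% and Glul at 43.9% and 36.7%. The neuron marker Tubb3 was at 50% and 64.6% (20 129 and 20 Cast counts, then 17 and 31). No oligodendrocyte, microglia or mesenchyme marker was informative in both controls.

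Biased genes were unevenly spread. Chromosome 15 held 34 Cast-biased and 8 129-biased genes of 195 informative ones (21.5%), chromosome 11 16 and 39 of 796 (6.91%), chromosome 7 15 and 17 of 508 (6.30%), chromosome 1 7 and 12 of 316 (6.01%) and chromosome 8 6 and 6 of 202 (5.94%). Fewer genes were informative on chromosome 13, with 4 and 4 biased of 33 (24.2%), on chromosome 3, with 2 and 4 of 37 (16.2%), and on chromosome 17, with none of 3 (0%). The median share on chromosome 15 was 51.0% in control A and 49.7% in control B, close to an equal share. Of the 84 Cast-biased genes, 70 had neighbours with a balanced median, as had 87 of the 90 129-biased genes and 2005 of all 2090 informative genes. Balanced neighbours were thus less common around Cast-biased genes than around informative genes in general, and about as common around 129-biased genes. Stretches were chosen for a summed share near balance, which already favours balanced neighbours. These counts therefore do not show whether the bias is limited to single genes.

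On chromosome 15, 8 neighbouring informative genes over 1240 kb (chr15:73512560-74752979) were all Cast-biased, a run found after the values were seen. In order they were Dennd3, Slc45a4, Ptp4a3, Bai1, Arc, Jrk, 4930572J05Rik and Lynx1, at 71.3 to 98.6% Cast. Their known roles differ: Arc is an immediate early gene of synapses, Ptp4a3 a phosphatase gene and Lynx1 a modulator of nicotinic acetylcholine receptors. Lynx1 had 21 129 and 979 Cast counts in control A and 12 and 852 in control B, and Arc was at 90.1% and 93%. Ptk2, the focal adhesion kinase gene directly before the run, was at 52.7% and 49.6%, and Ly6e, directly after it, at 51.7% and 43.3%. The change from balanced to biased thus fell between adjacent informative genes on both sides.

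**Figure D3:**
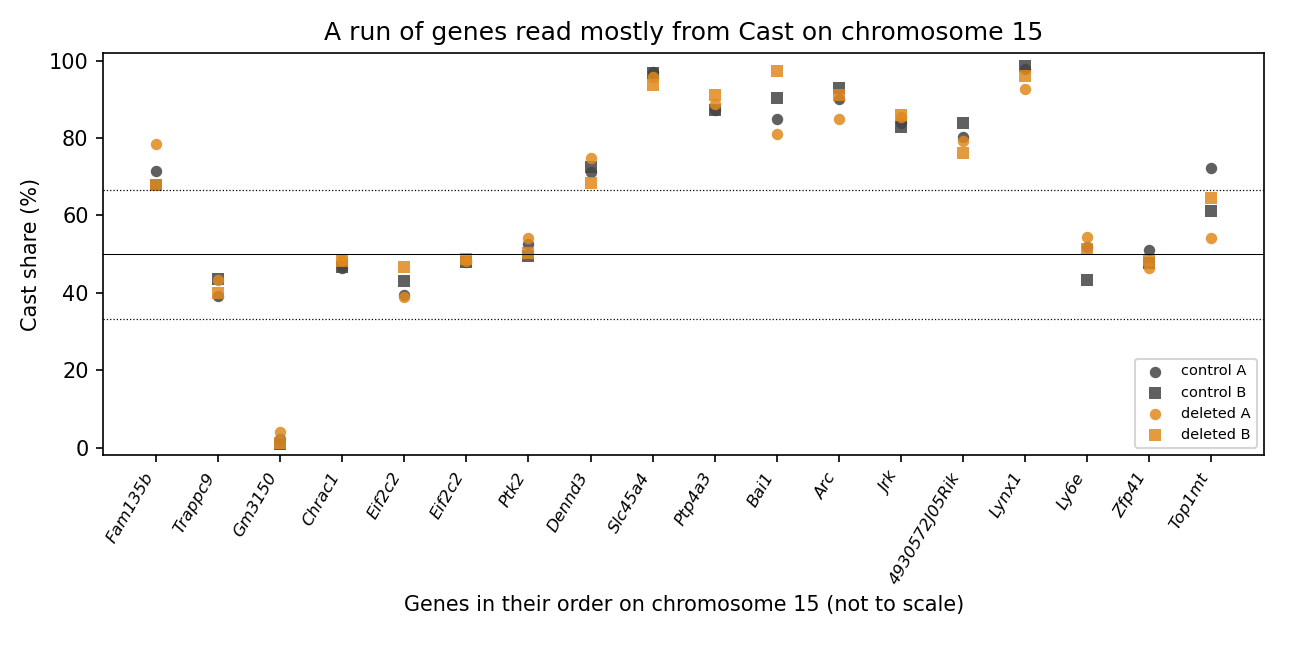
Cast share (vertical axis, %) of informative genes in their order along part of chromosome 15 (horizontal axis, not to scale), with circles for line A, squares for line B, grey for control and orange for deleted libraries, and dotted lines at the 2-fold limits. From Dennd3 to Lynx1 all 8 genes lie above the upper limit in all 4 libraries, and Ptk2 and Ly6e on either side lie near 50%.

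Shorter runs of at least 3 neighbours, also found after the values were seen, were 4 further ones on chromosome 15 and 1 on chromosome 1 for Cast, and 1 each on chromosomes 11 and 13 for 129. On chromosome 15 they joined Apobec3, a cytidine deaminase gene (97% and 97.9% Cast), to Cbx7 and Rpl3, and Atf4, a transcription factor of the stress response (71.6% and 69.1%), to Mgat3. Serhl, Rrp7a and Poldip3 (chr15:83089506-83149384) were at 98.1 to 99.8% in both controls. Poldip3 had 1 129 and 136 Cast counts, then 1 and 156, which were 4.27% and 4.4% of its total. Serhl and Rrp7a overlap each other's exons, so their reads cannot be fully separated.

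**Figure D4:**
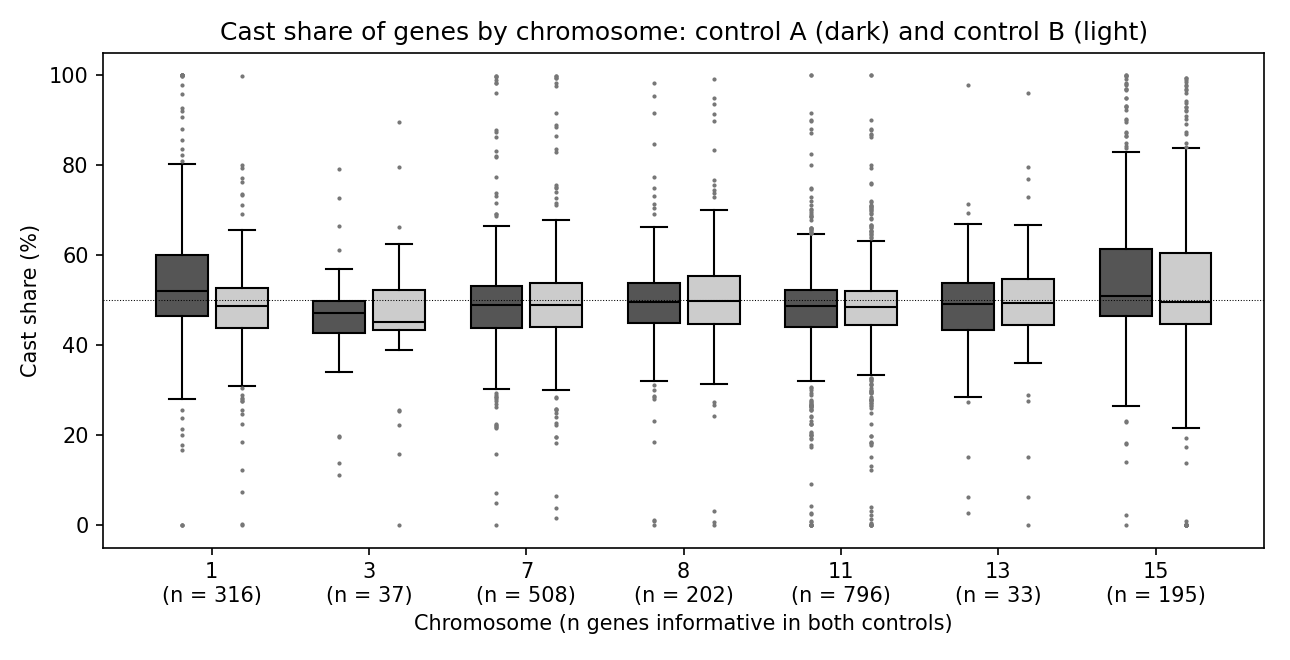
Cast share (vertical axis, %) of genes informative in both controls on each chromosome with at least 33 of them (horizontal axis), control A dark and control B light, as box plots with the median, the interquartile range, whiskers to 1.5 times its width and points beyond. Medians lie between 45.3 and 52.1%, and the box of chromosome 1 is higher in control A than in control B.

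The rule did not use the deleted libraries, so the allele ratio was tested there, with edgeR's quasi-likelihood test blocked by library. These libraries are parts of the same lines and p-values reflect only how these 2 cultures vary. Of 2206 genes tested, 131 were called higher from Cast (5.94%) and 170 higher from 129 (7.71%) at a Benjamini-Hochberg threshold of 0.05. Of the 84 Cast-biased genes, 83 passed the filter on low counts and 72 were called higher from Cast. Of the 90 129-biased genes, 89 passed and 66 were called higher from 129. None was called in the other direction. Both deleted libraries passed the 2-fold limit the same way for 76 of the 84 and 71 of the 90. A biased gene can pass that filter through the chromosome on which it is high, so the counts called are a description. DESeq2, which tested 2964 genes, called 68 higher from Cast (2.29%) and 67 higher from 129 (2.26%), 4.55% in all.

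Peg3 had a log2 ratio of Cast to 129 of 7.40 (SE 0.33, n = 2 libraries, edgeR adjusted p = 0.00392) in the deleted cells. Rpl3 was at 5.73 (SE 0.11, edgeR adjusted p = 0.0011), Ddx17 at 1.69 (SE 0.06, edgeR adjusted p = 0.00198) and Slc45a4 at 4.20 (SE 0.19, edgeR adjusted p = 0.00405). Aldoc was at -2.34 (SE 0.05, edgeR adjusted p = 0.00171), Fabp5 at -1.91 (SE 0.06, edgeR adjusted p = 0.00185) and Nfatc3 at -6.47 (SE 0.19, edgeR adjusted p = 0.00185). Cpne7, which separated by line, was at 2.18 (SE 0.44) and missed the threshold (edgeR adjusted p = 0.0652). Irgm1 also missed it, at -1.49 (SE 0.28, edgeR adjusted p = 0.0559). DESeq2 called both. Bcl6b, a transcriptional repressor gene, had 4 129 and 19 Cast counts in one control and 4 and 16 in the other, and 49.1% Cast in deleted A, and was the 1 tested Cast-biased gene whose fitted ratio turned.

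**Figure D5:**
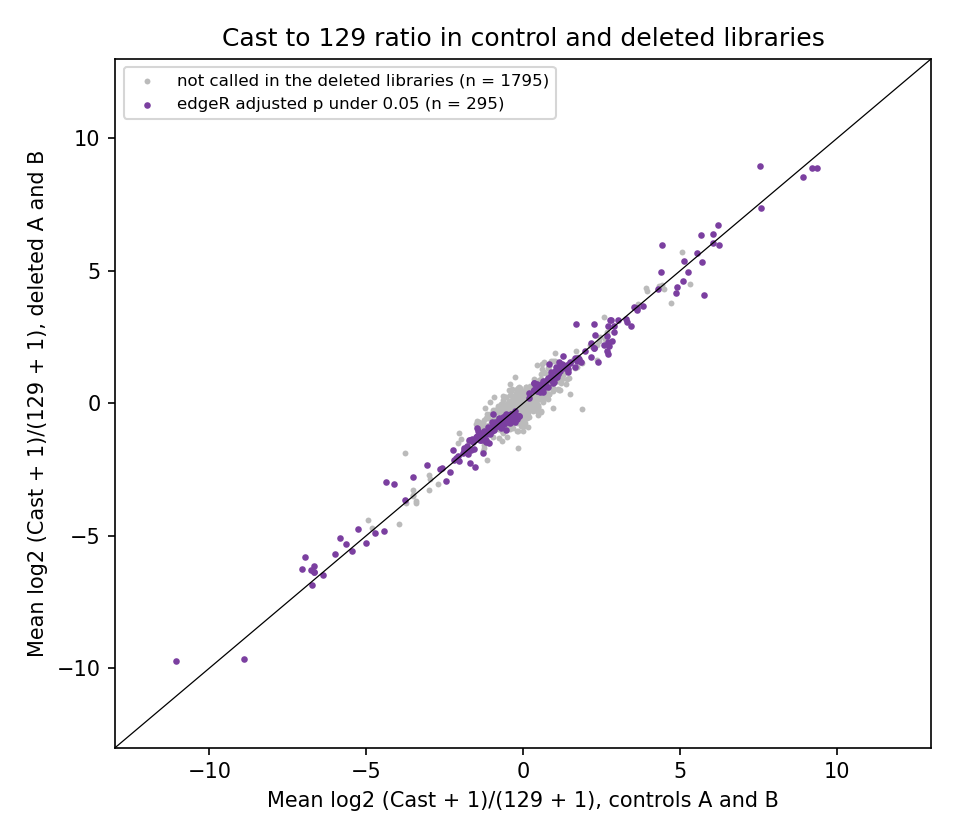
Mean log2 ratio of Cast to 129 (1 count added to each) of the 2090 informative genes in the controls (horizontal axis) and in the deleted libraries (vertical axis), 1 point per gene, purple where edgeR called the ratio in the deleted libraries (295 genes), with the line of equal values. Points lie along the line over the whole range from 129-biased to Cast-biased genes.

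Genes just at the limit show how little separates them. Itga2 (66.9% and 77.0%) and BC067074 (69.5% and 66.7%) lay just inside the Cast limit, Rpl13 (66.3% and 70.1%) and Stk10 (68.8% and 66.5%) just outside. On the other side, Tmem238 (22.6% and 33.3%) and Pla2g3 (25.6% and 33.3%) were inside, Brox (32.8% and 33.7%) and Pcsk6 (21.8% and 33.7%) outside. In the deleted libraries, where these limits played no part, Rpl13 and Stk10 were called higher from Cast (edgeR adjusted p = 0.0385 and 0.0186), and Itga2 was not (edgeR adjusted p = 0.337). Neither call held with DESeq2 (adjusted p = 0.0665 and 0.122), and that of Rpl13 was also lost with TMM scaling in edgeR (adjusted p = 0.064). Rpl13 has 4 near-identical copies in the annotation.

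Whether the ratio differed between deleted and control cells was tested in 1 model over the 4 libraries. This model left out the line, so differences between lines entered its error (estimated dispersion 0.0493). A lack of calls in it therefore does not show equal ratios. Of 2267 genes, none was called in either direction (0%), and 35 had a higher and 29 a lower ratio in deleted cells at an unadjusted p under 0.05. DESeq2 called none, whether or not the line was in the model. Blocked by line, edgeR called 12 genes with a higher (0.529%) and 6 with a lower ratio (0.265%), 0.794% in all, with an estimated dispersion of 0.0003, which leaves errors close to counting error. Both controls carry the values that chose the members, so a change toward balance in a biased gene is not support for a difference.

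Of the 18 genes called with that block, 7 were among the 174: Rgs8, Rgs16, Arc and Lynx1 of the Cast-biased and Aldoc, Tns3 and Irgm1 of the 129-biased genes. The Rgs8 ratio was 1.44 higher on the log2 scale in deleted cells (SE 0.15, edgeR adjusted p = 5.68e-19 with the block, edgeR adjusted p = 1 without), at 93.3% and 82.5% Cast against 78.9% and 73.5%. Its total level was 243 and 112 CPM in the controls and 65.6 and 25.9 in the deleted libraries. Rgs16 moved the same way by 0.56 (SE 0.08, edgeR adjusted p = 4.03e-09 with the block), from 70.2% and 71.3% to 79.2% and 76.0%. At these neighbours both lines moved toward Cast. They are described because they were called, and how often other tested genes separate the groups as fully is not given. The lack of overlap therefore adds nothing to the calls.

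Aldoc was 0.69 higher (SE 0.09, edgeR adjusted p = 4.33e-11 with the block), at 16.3% and 16.7% Cast in deleted cells, with totals of 129 and 144 CPM in the controls and 164 and 269 in the deleted libraries. Lynx1 fell by 1.78 (SE 0.27, edgeR adjusted p = 4.16e-08 with the block), to 92.6% and 96.1% Cast, and its neighbour Arc fell by 0.50 (edgeR adjusted p = 0.0344 with the block), to 85% and 91.0%. Tns3 was 0.41 higher (SE 0.08, edgeR adjusted p = 0.000109 with the block), at 34.1% and 31.4% in deleted cells against 25.7% and 28.2%. Irgm1 was 0.66 higher (edgeR adjusted p = 0.0344 with the block), and without deleted A the difference in the model with no block was 0.08. Called genes not biased in both controls included Sparc, a secreted matrix protein gene, up by 0.30 (40.2% and 40.8% to 47.4% and 43.5%). Cdh13, a cadherin gene, was down by 0.34 (62.4% and 60.2% to 57% and 54.3%), Lrrn2 up by 0.54 and Fam189a1 up by 1.17. Lrrn2, just outside the 2-fold limit, went from 34.4% and 33.7% to 42.5% and 43.4% Cast. Fam189a1, past that limit in control B only, went from 34.3% and 30.5% to 56.2% and 45.5%. The adjusted p of each of these genes was 1 without the block, where differences between lines enter the error.

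Some genes differed by line, 6 of the 174 among them (Tor3a, Kcnk2, Cpne7, Irgm1, Slfn9 and Arc). This comparison was added after the values were seen. The control and deleted library of a line are parts of the same culture. Calls between lines therefore measure agreement between parts of a culture and not between embryos. Of 2267 genes tested with edgeR, 112 had a higher Cast to 129 ratio in line A and 33 in line B (6.4% in all), and on chromosome 1 79 of 340 were higher in A and 1 in B. DESeq2 called 69 and 11, and without chromosome 1 31 and 29 genes were called. A total of 17 genes were at 90 to 100% Cast in both libraries of A and at 35 to 65% in both of B, 14 of them on chromosome 1, and no gene showed the reverse. Iars2 and Eprs, nearby aminoacyl tRNA synthetase genes, had 1 129 count each against 2308 and 2843 Cast counts in control A, and were at 48.9% and 52.8% Cast in control B. The total level was also compared on chromosome 1, in informative stretches or not. In controls it was higher in line B by a median log2 value of 0.06 over 658 genes. In deleted cells this median was 0.04 over 669 genes. Among all autosomes the median in controls ran from -0.02 (chromosome 10) to 0.08 (chromosome 13). The level of the 17 genes alone was not compared.

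Near the end of chromosome 15 the lines differed gene by gene. Between chr15:86214459 and 89560261, 10 genes at 35 to 65% Cast in both libraries of A were at 0 to 5% in both of B, but Mapk11, Plxnb2 and Fam116b, which lie among them, were at 90 to 100% in A and at 35 to 65% in B. Sbf1, a phosphatase-related gene, had 398 129 and 370 Cast counts in control A and 891 and 0 in control B. Ncaph2, a condensin gene counted among the 129-biased genes (95 129 and 0 Cast counts in control A, 114 and 0 in control B), lies in this stretch. Whether its lack of Cast counts in control B is particular to the gene was not tested. Plxnb2, a semaphorin receptor gene, was at 99.9% Cast in the control of A but 46.9% in that of B. Rabl2, 1 of the 2 genes with opposite bias, lies just after it, with shares of 86.5% and 27.4% in the controls of A and B. The other is Tnr, an extracellular matrix protein gene of the brain, at 67.2% and 28.3%.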

How the data were processed

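RNA sequencing of 4 mouse neural stem cell libraries was analysed, 2 control and 2 Smchd1-deleted. The authors deposited whole-number raw counts per gene in 12 columns, 3 per library: all reads, genome 1 and genome 2. The submitters' processing notes name the build mm10 and, without roles, TopHat2 2.0.12, bcl2fastq and edgeR. For the assignment of reads to a genome, the counting and the use of strand, nothing is given in the sources used here. Neither genome is named in the table, and genome 2 was read as Cast because 99.6 to 99.7% of allele-assigned Xist counts fell there and the labels place the Xist deltaA allele on the 129 X. Libraries held 29873400 to 34018500 counts, of which 25.3 to 25.9% were assigned to a genome, and 20.2 to 23.4% of autosomal assigned counts were Cast. Counts of Smchd1 were 2779 and 3461 without and 785 and 852 with Cre.

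Members and gene lists were chosen with earlier results of these data known. Each column's group follows from the labels. The line was read from a number in the column's name, whose match to the samples' replicate numbers is not given. Which sample of its group a library is remains unknown, and no result uses it. Lines were split before transduction, which pairs the libraries. Deviations of a line's control and deleted library correlated across 2066 genes at r = 0.87. Ratios were tested with edgeR 4.0.16 (quasi-likelihood, filterByExpr, Benjamini-Hochberg over all genes fitted, threshold 0.05) in R 4.3.3, over all autosomal genes of stretches informative in both controls. Library was a block, and the sum of both alleles was the library size of both columns. The SE given with edgeR values was derived as the absolute log2 value divided by the square root of the test's F statistic. CPM are total counts scaled to library size. Alternatives included DESeq2 1.42.0, TMM, no filter, other windows, count minimums and folds, and leaving out libraries. The fits were tested on simulated data. Copies and overlaps came from GENCODE M21 (blastn 2.17.0, bedtools 2.31.1), promoters from RefSeq.

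Named genes were, of those biased the same way with at least 100 allele-assigned counts in each control, the 12 of each direction with the largest bias in the less biased control and the 10 with most counts; up to 4 biased members of each gene list by counts, or the 2 members with most counts if none was biased; up to 8 with opposite bias; up to 8 called between genotypes by adjusted p; and the 2 just inside and 2 just outside each limit. Several of these are not described singly. Genes in runs, further imprinted genes, Bcl6b and genes that differ by line were chosen after their values were seen.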

Additional observations from a re-analysis of the deposited data

Results flagged for a closer look

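Of the 145 genes called between the lines by edgeR, those given here are the ones that the rule for named genes holds and the 8 with the lowest adjusted p (counting only those that reach 100 assigned reads per control), together with the 2 of opposite bias, 13 in all. The values are mean Cast share over the 2 libraries of line A minus that of line B, in percentage points. These 2 libraries are parts of the same culture, so adjusted p here reflects agreement within a culture and not between embryos. On chromosome 1 they were 64.4 for Phlda3, an inhibitor of Akt signalling, 60.6 for Bpnt1, 52.0 for Tnr, 50.3 for Iars2, 48.1 for Eprs, 46.5 for Rab3gap2 and 32.8 for Arpc5, a subunit of the actin nucleating complex. On chromosome 15 they were 62.0 for Rabl2, 51.6 for Plxnb2 and 47.8 for Sbf1. Cpne7 on chromosome 8 was lower in line A (-15.5), and its call held without each library in turn (edgeR adjusted p = 9.35e-07 to 1.61e-05). The calls of Irgm1 (7.71) and Slfn9 (2.14) did not hold in this way. Irgm1 was at 32.9% Cast in deleted A and at 17.8 to 20% in the other 3 libraries, and Slfn9 at 3.74% against 0 to 0.917%. Without deleted A the edgeR adjusted p was 0.946 for Irgm1 and 0.775 for Slfn9, and both calls were also lost without control B or deleted B and with DESeq2.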

How the results depend on the processing

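With only 2 lines, and 20 counts as the minimum, a low-count gene can pass the 2-fold limit by counting error, and the depth limits what can be said of balance to genes with many counts. The numbers of genes biased the same way, 84 for Cast and 90 for 129, became 51 and 58 with stretches whose neighbours also qualified, 155 and 173 at 1.5-fold, and for 129 49 with a minimum of 100 counts and 42 at 3-fold. Read from a single control, they ranged from 118 to 156 for Cast and 122 to 141 for 129. Bins of 5 or 2 Mb, a 40 to 60% window, other minimums, centring on the library or chromosome median and leaving out repeated symbols kept each within 1.5 times.

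In the deleted libraries the calls, 131 for Cast and 170 for 129, were 87 and 80 with TMM, 68 and 67 with DESeq2 and 62 and 52 without the replicate block, and for Cast 82 without genes whose reads may be shared (genes not found in the annotation were kept). Of the biased genes, 72 and 66 were called, against 40 for 129 with no replicate block and 45 for Cast without genes whose reads may be shared. From 1 deleted library alone, 78 to 79 Cast-biased and 74 to 81 129-biased genes passed 2-fold, with no test. Among genes named singly, 28 of 322 repeats of this test lost the call and none turned direction. Between genotypes, no gene was called except with the replicate block, 12 higher and 6 lower. Between lines, 33 genes higher in B and 112 higher in A became 11 and 69 with DESeq2, 31 higher in A without chromosome 1, and 18 to 27 and 83 to 99 without 1 library. The alternatives with chromosome centring, without genes whose reads may be shared, by line and with DESeq2 and the replicate block were chosen after seeing the data. Apart from those with fewer genes or libraries, the cause was not tested.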
